A study of Mus musculus with 14 samples.

Results

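A small population of Eomes-positive, Slc17a6-poor cells was present among cells sorted from pontine nuclei dissected from mouse pups at postnatal day 5 (P5). The dissection was made for the pontine projection neurons, and where in the tissue the Eomes-positive cells lay was not tested. Eomes (Tbr2) is a T-box transcription factor that marks unipolar brush cells, and Slc17a6 encodes the vesicular glutamate transporter VGLUT2. The cells were chosen in the 2 P5 libraries by their raw unique molecular identifiers (UMIs, 1 per captured transcript): at least 3 of Eomes, at most 2 of Slc17a6 and 0 of the microglial genes C1qa and C1qb together. They also had to hold at least 1000 genes and less than 10% of their UMIs from mitochondrially encoded (mt-) genes. By this rule 758 cells were members, 542 in replicate 1 and 216 in replicate 2, of 17908 P5 cells that met the limits on genes and mt- UMIs and of 122658 such cells in all 14 libraries of the series. The members are called brush-like cells here, since the markers described next went with Eomes in most of them.

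Unipolar brush cells are small glutamatergic interneurons with 1 short, brush-shaped dendrite. They are best known from the granular layer of the cerebellum and from the dorsal cochlear nucleus, where each receives a giant mossy fiber synapse and passes the signal on to granule cells. They arise from the rhombic lip, the dorsal edge of the hindbrain that also makes granule cells and, further caudally, the neurons of the pontine nuclei. Mature unipolar brush cells are described as ON cells, which glutamate excites, and OFF cells, which hold calretinin (Calb2) and which glutamate inhibits through mGluR2.

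Both P5 libraries came from mice on the C57BL/6J background that carried 1 Atoh1 Cre allele and 1 Rosa lsl-tdTomato allele (Atoh1 Cre/+; Rosa lsl-tdTomato/+). Cre sits in place of the Atoh1 coding region, so that these control animals had a single working copy of Atoh1, the transcription factor of the rhombic lip, and only cells of the Atoh1 lineage made tdTomato. Each P5 library pooled the microdissected pontine nuclei of 11 to 13 pups, from which tdTomato-positive, DAPI-negative cells were sorted. The 3 E18.5 control libraries used for comparison had the same genotype and each came from the hindbrain of 1 embryo. The WPRE element of the reporter transcript was found in 81.5% and 87.04% of the brush-like cells of replicates 1 and 2 and 98.8% and 99.2% of the deeper comparison cells described below (after thinning to 3000 UMIs, 53.9% of all brush-like cells and 68.4% of all comparison cells), at 271 and 315 CPM against 383 and 420.4 CPM (counts-per-million, relative to all UMIs of those cells).

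The libraries held 236964126 and 160411671 UMIs, of which the brush-like cells held 4006713 and 1626053. Brush-like cells made up 4.80% (95% exact binomial interval 4.41 to 5.21) of the cells kept in replicate 1 and 3.27% (2.85 to 3.73) in replicate 2, and the 2 intervals did not overlap. These intervals cover counting error only, and the dissection and the sort can set such shares. The same rule chose 18.8%, 19.2% and 17.0% of the cells of the 3 E18.5 control libraries, which came from the hindbrain. Brush-like cells were small in RNA, with a median of 6749.5 and 7164.5 UMIs and 2835 and 2897.5 genes, against a median of 16500 and 19433.5 UMIs in all cells kept.

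The comparison cells at P5 were the 7076 cells (4094 and 2982) with at least 3 UMIs of Slc17a6 and 0 of Eomes, C1qa and C1qb. Their median of 28928.5 and 31844.5 UMIs was over 4 times that of the brush-like cells. The gap in depth touches every share of cells with a UMI below, so that levels in summed UMIs and shares after thinning each cell to 3000 UMIs are used for comparisons. Thinning left out 10 brush-like cells and 7 comparison cells that held fewer UMIs.

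Eomes, on which the cells were chosen, stood at a median of 6 UMIs in both libraries and reached 21 and 24. Just inside the limit, 80 and 33 cells had exactly 3 UMIs of Eomes, and 96 and 68 cells that met the other limits had exactly 2. Slc17a6 was at 0 in 389 and 151 of the members, at 1 in 122 and 38, and at 2 in 31 and 27, while 11 and 15 cells were left outside with exactly 3. No cell barcode was shared by members of the 2 libraries, although the libraries as a whole shared 38.

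The 2 libraries differed in their share of newborn-like cells. Nhlh1 or Insm1, transcription factors of newly born neurons, had a UMI in 8 (1.48%) of the brush-like cells of replicate 1 and in 37 (17.1%) of those of replicate 2. In replicate 2 these 37 cells held 1053 CPM of the cyclin Ccnd2, against 10.2 CPM in the other members, and 434 CPM of Grp, against 2741 CPM. They were also lower in Lmx1a (17.3 against 178 CPM), Samd3 (20.1 against 205), En2 (80.6 against 328) and Tmem108 (83.4 against 702). Otx2 was higher in them, at 423 against 145 CPM. Most of the brush cell markers described below were thus low in these 37 cells, which are members by the rule. The 8 cells of replicate 1 did not share this pattern, with 0 CPM of Ccnd2 against 7.86 CPM in the other members and 3580.4 CPM of Grp against 2234 CPM, so that the name rests on replicate 2. In all, 49 members (38 and 11) held at least 10 UMIs summed over 23 markers of glia, vessels, ependyma and red blood cells. Alternatives without either set of cells were added after the data were seen. In the comparison within P5 they were left out of the brush-like cells alone, and the comparison cells stayed as they were. At E18.5 both sets were left out of the cells chosen by the same rule.

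The 6 further markers described here were present in most of the brush-like cells, while few comparison cells held 3 or more of them. At least 3 of the 6 (Grp, En2, Samd3, Tmem108, Lmx1a and Otx2) had a UMI in 494 cells of replicate 1 (91.1%) and 175 of replicate 2 (81.0%). Among the comparison cells this was so in 9 (0.220%) and 12 (0.402%), despite their greater depth. All 6 were found in 85 and 38 brush-like cells, and none in 4 and 1. Of the comparison cells, 1494 and 1252 held 1 or 2 of the 6, and Tmem108 had a UMI in 33.2% of all comparison cells.

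Grp, which encodes gastrin-releasing peptide, stood at 2255 and 2248 CPM in the brush-like cells of the 2 libraries and at 3.06 and 4.49 CPM in the comparison cells. Samd3, a gene of a SAM-domain protein, stood at 168 and 165 CPM against 0.0864 and 0.00971 CPM. En2, a homeobox gene of the midbrain and rostral hindbrain, was at 223 and 275 CPM against 0.134 and 0.894 CPM. Each of these genes was high in both libraries' brush-like cells and close to 0 in both sets of comparison cells. Tmem108, which encodes a transmembrane protein, was at 562 and 570.1 CPM against 19.3 and 17.96 CPM and thus was low rather than absent in the comparison cells. Over the 2 libraries the levels were 3472-fold (Samd3), 596-fold (Grp), 484-fold (En2) and 30.4-fold (Tmem108) those of the comparison cells. The folds of Samd3 and En2 rest on comparison levels that were low and differed between the libraries. That of Samd3 in replicate 2 was below the level of 3 counts there (0.0291 CPM). These 4 genes and Eomes were the markers by which the cells had been described in advance. Their levels here and between the ages are therefore a description, and no test result is given for them. The 4 genes stayed in the fits and could enter the lists of the largest changes.

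Lmx1a and Otx2 were not among the genes that described the cells. Classes were compared by edgeR's quasi-likelihood test on UMIs summed per library and class, with the library as a block, and a gene was called at an adjusted p under 0.05 and an absolute log2 change over 0.25. It called 54.6% of the 11010 genes tested (26.4% higher and 28.2% lower in brush-like cells), so a call on its own sets no gene apart. Genes were tested where at least 10% of the cells of a class held a UMI, and 84 of the 11010 passed this filter on low values through the brush-like cells alone, all of them called higher. The comparison cells alone brought 3523 past it, of which 433 were called higher and 1283 lower. For such genes the filter set the direction in part, so their log2 changes are given as a description, without a p-value or SE. Lmx1a, Otx2, Neurod1 and Nptx1 were among the 84. With no filter on genes 28.7% of 23863 were called (11.4% higher and 17.3% lower), and the median log2 change was -0.41. Counts on the lists below stand against the shares of the fit they come from. The rule also sorted cells by Eomes and Slc17a6, so that genes which go with either had to differ. With the library as a block, the p-values set the difference between the classes against its variation between 2 pools of pups. Few sums were available for each gene, so this variation was estimated largely over all genes and little from the gene itself. Log2 changes are after edgeR's TMM scaling, whereas CPM are not scaled further. The SE is the absolute log2 change divided by the square root of the test's F statistic.

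Lmx1a, a LIM-homeobox factor of the rhombic lip and roof plate, was at 141 and 144 CPM in the brush-like cells and 0.361 and 0.214 CPM in the comparison cells. After thinning to 3000 UMIs it had a UMI in 32.1% of brush-like cells and 0.184% of comparison cells. Before thinning these shares were 63.1% and 56.02% in the brush-like cells and 0.977% and 0.503% in the comparison cells. The log2 change of Lmx1a was 8.85. It was high in each library's brush-like cells, without overlap with the comparison cells. Otx2, a homeobox factor, was at 108 and 205 CPM against 0.432 and 5.66 CPM, with a log2 change of 6.17. The libraries differed in its level, replicate 2 being the higher in both classes, and in that library Otx2 was at 423 CPM in the newborn-like members and 145 CPM in the others.

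**Figure D1:**
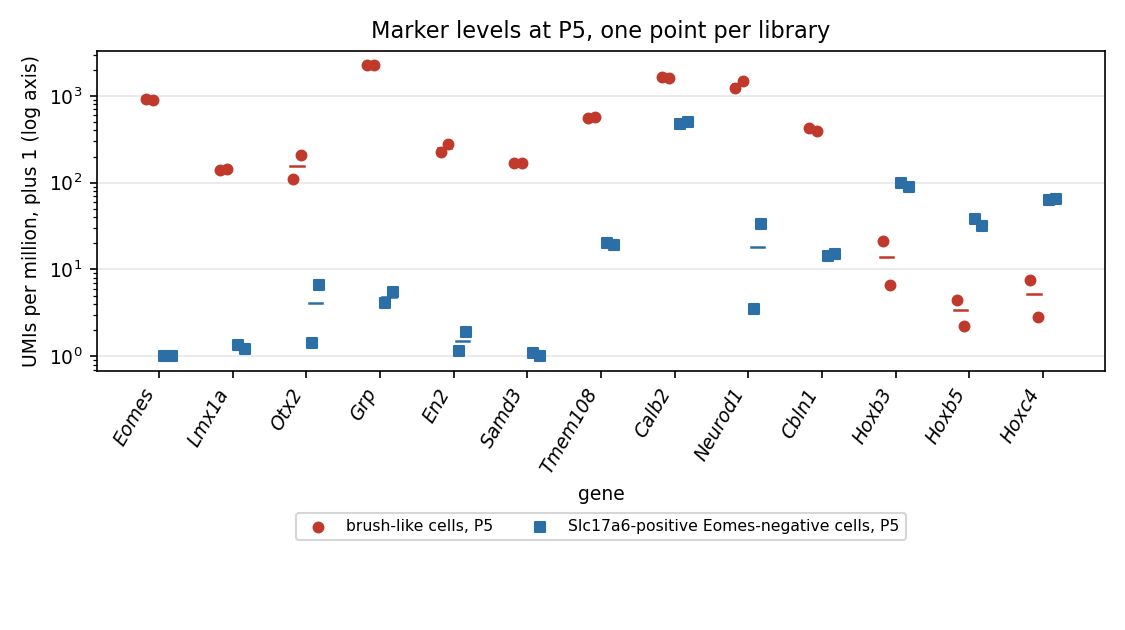
Levels of 13 genes in the brush-like cells and in the Slc17a6-positive, Eomes-negative cells of the 2 P5 libraries, as CPM plus 1 on a log axis. Each point is 1 library and each line is the mean of 2. Grp lies at 2255 and 2248 CPM in brush-like cells and 3.06 and 4.49 CPM in comparison cells, while Hoxc4 lies at 6.49 and 1.84 CPM and 61.7 and 64.6 CPM.

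Eomes belongs to the T-box family, and promoter sequences were therefore searched for a T-box motif in the 250 bases before each gene's start (RefSeq windows, build GRCm38.p6). The letters AGGTGTGA, read on both strands, were in 368 of 32851 promoter windows (1.12%). Of 7 brush cell markers (Eomes and the 6 above), 5 had a window, 9 windows in all, and 1 of the 9 held the motif. This was the window of Samd3, at chr10:26229457-26229706 on the plus strand. It is shown 5′ to 3′ with the motif's reverse complement, TCACACCT, in capitals, 15 bases before the start of the transcript.

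Samd3: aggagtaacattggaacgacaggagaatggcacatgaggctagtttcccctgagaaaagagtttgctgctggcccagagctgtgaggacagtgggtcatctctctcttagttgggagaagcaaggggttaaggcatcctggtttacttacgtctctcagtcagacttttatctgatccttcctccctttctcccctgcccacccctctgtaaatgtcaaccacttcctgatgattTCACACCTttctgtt

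The 6 letters TAATCC, the core bound by OTX proteins, were in 2054 windows (6.25%) and in 1 of the 9 windows of the markers, that of Otx2 itself at chr14:48665110-48665359 on the minus strand. A match of letters is a description of the sequence and says nothing about binding.

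Regional factors separated the brush-like cells from the comparison cells. Hox genes, which are expressed in the hindbrain from its caudal end up to a limit that differs for each gene, were low or at 0 in the brush-like cells. Of 17 measured Hox genes 9 were abundant enough to test, and all 9 were lower in brush-like cells. They passed the filter on low values through the comparison cells alone, where they are high, so that the filter set this direction in part. With no filter on genes 14 were tested, of which 11 were lower and none was higher. The lower level of the 9 held without the newborn-like cells, without the mixed cells and without the library block. Hoxb3 was at 20.2 and 5.53 CPM in brush-like cells and 97.7 and 88.3 CPM in comparison cells, a log2 change of -2.72. Hoxb5 stood at 3.49 and 1.23 CPM against 36.8 and 30.6 CPM, and Hoxc4 at 6.49 and 1.84 CPM against 61.7 and 64.6 CPM. The comparison cells of both libraries were above both sets of brush-like cells for each of the 9 genes, and the median log2 change over the 9 was -3.42, against 0.00 over all genes tested. Within the brush-like cells replicate 1 was higher than replicate 2 for all of these genes but Hoxa2. No background level was estimated for UMIs this rare, so they are not read as expression.

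Of 5 tested genes on the list of rostral regional factors (En2 aside), Lmx1a, Otx2 and Meis1 were higher, and Meis2 and Irx2 lower, in brush-like cells. With no filter on genes 12 were tested, of which 3 were higher and 3 lower. The list's median log2 change was then -0.73 in place of 0.51, against -0.41 over all genes with no filter. Meis1, which encodes a partner of Hox proteins, was at 226 and 194 CPM against 147 and 136 CPM, and its log2 change of 0.51 (SE 0.10, adjusted p = 3.2e-04) was small. Irx2, an Iroquois homeobox gene, was at 50.7 and 21.5 CPM against 422 and 381 CPM and showed a log2 change of -3.44 (SE 0.17, adjusted p = 1.6e-10). En1, the paralog of En2, had no UMI in any brush-like cell at P5, which allows a level of up to 0.533 CPM over the 2 libraries. En2 and Cnpy1 are neighbours on chromosome 5 (En2 at 28165694 to 28172166 on the plus strand, Cnpy1 at 28200819 to 28245806 on the minus strand, build mm10). Cnpy1, a gene linked to FGF signaling, was at 61.6 and 52.9 CPM against 0.244 and 0.495 CPM and was among the 10 genes with the largest rise in brush-like cells.

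Genes of the granule cell lineage, which shares the rhombic lip with unipolar brush cells, were mostly higher in the brush-like cells than in the comparison cells. Of 13 tested, 10 were higher, 3 were not called and none was lower. The median log2 change over the list was 0.65. The filter on low values set the direction of 3 of the 13 in part, since 2 passed it through the brush-like cells alone and 1 through the comparison cells alone. Of 17 tested with no filter on genes, 13 were higher and none was lower. Without the newborn-like cells 8 were higher and 1 was lower.

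Neurod1 is a basic helix-loop-helix factor of granule cells and of other young neurons. It was at 1235 and 1479 CPM in brush-like cells and 2.48 and 32.1 CPM in comparison cells, a log2 change of 7.03. Cbln1, a secreted organizer of the synapse between granule and Purkinje cells, was at 423 and 391 CPM against 13.5 and 14.1 CPM, a log2 change of 4.83 (SE 0.11, adjusted p = 1.4e-14). Zic1, a zinc finger factor of the dorsal neural tube, was at 1974 and 2078 CPM against 681 and 734 CPM. Its log2 change of 1.46 (SE 0.09, adjusted p = 1.7e-09) was smaller, and the comparison cells held Zic1 too. For each of the 3 genes both libraries' brush-like cells were above both sets of comparison cells.

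The 8 granule cell markers, some of which unipolar brush cells share, summed to 4145 and 4641 CPM against 1122 and 1261 CPM. Gabra6, the GABA-A subunit of mature granule cells, had no UMI in any brush-like cell, which allows a level of up to 0.533 CPM over the 2 libraries. Atoh1, the factor of dividing granule cell precursors, stood at 4.24 and 3.69 CPM, against 2.73 and 3.39 CPM in the comparison cells. Pax6, a factor of the granule lineage, was at 108 and 240.5 CPM, with replicate 2 above replicate 1, against 99.9 and 105 CPM. Its log2 change was 0.59 (SE 0.17, adjusted p = 0.0079), and this call was lost without the library block and without the newborn-like cells, which held 676 CPM of Pax6 in replicate 2 against 122 CPM in the other members. Reln, which encodes the secreted glycoprotein reelin, was at 63.1 and 89.8 CPM against 50.3 and 51.01 CPM, and its call was lost without the newborn-like cells, though not without the block.

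Genes of Gq signaling, by which some metabotropic receptors act on phospholipase C, were mostly lower in the brush-like cells. Of 8 tested on this list 6 were lower, 2 were not called and none was higher. Grm5, a metabotropic glutamate receptor, was at 94.3 and 53.5 CPM against 282 and 262 CPM, with a log2 change of -1.90 (SE 0.14, adjusted p = 1.8e-08). Plcb4, a phospholipase C of cerebellar neurons, was at 105 and 94.7 CPM against 116 and 99.96 CPM, and the 2 classes overlapped. It was not called, but with no filter on genes and with edgeR's own filter it was called lower, with log2 changes of -0.31 and -0.29. Gnaq, the G protein subunit upstream of it, was at 203 and 194 CPM against 279.6 and 274 CPM, and its log2 change was -0.53 (SE 0.09, adjusted p = 2.0e-04).

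For the mGluR2 pathway, 2 of 10 tested genes were higher (Calb2 and Kcnj3), 6 were lower and 2 were not called. Without the library block the count of lower genes was 4, since Grm2 and Kcnj6 lost their calls. Calb2, the calcium-binding protein calretinin, was at 1661 and 1630.3 CPM in brush-like cells and 469 and 498 CPM in comparison cells, a log2 change of 1.71 (SE 0.09, adjusted p = 3.7e-10). Grm2 itself was rare, at 9.48 and 6.76 CPM against 14.2 and 10.8 CPM. Plcb1, the phospholipase of OFF cells, was at 51.9 and 54.7 CPM against 71.6 and 67.95 CPM, slightly lower in both libraries. The levels of Plcb1 and of the potassium channel subunit Kcnj6 over all brush-like cells were averages of unequal cells, as the division by Grp and Calb2 described later shows.

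Of 14 tested ionotropic glutamate receptor genes 10 were lower in the brush-like cells and 1, the AMPA receptor subunit Gria2, was higher. Gria2, which makes AMPA receptors impermeable to calcium, was at 995 and 641 CPM against 523 and 369.9 CPM, with a log2 change of 0.81 (SE 0.09, adjusted p = 2.3e-06). The classes did not overlap between libraries. Among the lower genes, Gria4 was at 24.7 and 12.3 CPM against 86.5 and 71.9 CPM and Grin3a at 21.2 and 12.9 CPM against 78.98 and 69.1 CPM. Of the 14 genes, 8 passed the filter on low values through the comparison cells alone, which set their direction in part. With no filter on genes 16 were tested, of which 11 were lower and 1 was higher, and the median log2 change was -1.15 in place of -1.45. Without the newborn-like cells 2 were higher and 11 were lower.

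Receptors for the inhibitory transmitters were lower almost throughout. Of 14 tested glycine and GABA-A receptor genes, 13 were lower in brush-like cells and none was higher, with a median log2 change of -2.14. The comparison cells alone brought 9 of the 14 past the filter on low values, which set the direction of these 9 in part. With no filter on genes 14 of 17 were lower and none was higher, with a median of -2.30, against -0.41 over all genes. Gabra5, an alpha subunit of extrasynaptic GABA-A receptors, was at 23.2 and 9.22 CPM against 137 and 133 CPM, a log2 change of -2.95. Gabrg1 was at 26.2 and 13.5 CPM against 151 and 174 CPM. In both libraries the brush-like cells held a small part of the comparison cells' level, and for both genes replicate 1 held more than replicate 2. The gene not called was Glra2, the alpha 2 subunit of the glycine receptor, at 146 and 148 CPM against 129 and 137 CPM, with a log2 change of 0.09 (SE 0.10, adjusted p = 0.44). The beta subunit that partners it, Glrb, was at 53.9 and 29.5 CPM against 96.3 and 94.3 CPM and was called lower at -1.18 (SE 0.16, adjusted p = 1.7e-05) on the log2 scale.

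Few genes of transmitter synthesis and transport were abundant enough to test. Slc17a7 (VGLUT1), the transporter of mature unipolar brush cells and granule cells, was at 37.9 and 31.4 CPM against 34.9 and 33.7 CPM, with a log2 change of -0.02 (SE 0.15, adjusted p = 0.93). Slc17a6 was held low by the rule, at 45.9 and 56.6 CPM. Of 4 genes tested, 3 were lower (Gad2, Slc18a3 and Chat) and none was higher. With no filter on genes 8 were tested, of which 2 were higher and 3 lower, and the list's median log2 change was -0.08 in place of -2.09. The summed level of the inhibitory neuron markers Gad1, Gad2, Slc32a1 and Slc6a5 was 30.2 and 3.07 CPM, below the 53.8 and 53.5 CPM of the comparison cells.

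Within the brush-like cells, Grp and Calb2 divided most cells between them. At least 20 UMIs of Grp were found in 280 cells (200 and 80) and at least 20 UMIs of Calb2 in 184 cells (133 and 51), but both together in only 9 cells (4 and 5). Of the cells without a UMI of Grp, 70.0% in replicate 1 and 42.6% in replicate 2 had at least 20 UMIs of Calb2, against 2.00% and 6.25% of the cells with at least 20 UMIs of Grp. Spearman's rho between the 2 genes' shares of each cell's UMIs was -0.64 over the 542 cells of replicate 1 and -0.20 over the 216 cells of replicate 2. Cells of a library share 1 pool and each cell's UMIs are the divisor of both genes, so rho is a description. The newborn-like cells, 37 in replicate 2 and 8 in replicate 1, enter these shares and rho. In replicate 2 they were low in both genes, with 434 CPM of Grp and 230 CPM of Calb2, against 2741 and 2011 CPM in the other members. Their part in the difference between the libraries was not tested. The 2 genes had medians of 13 and 13 UMIs (Grp) and 8 and 6 UMIs (Calb2) and reached 89 and 78.

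**Figure D2:**
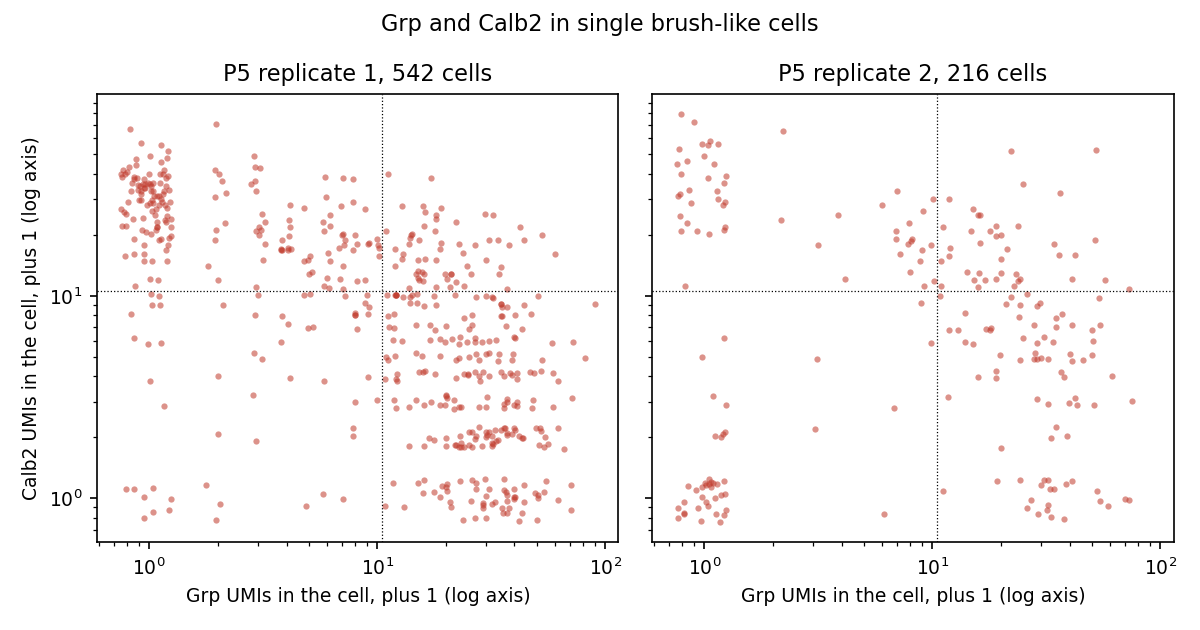
UMIs of Grp and of Calb2 in each brush-like cell of the 2 P5 libraries, plus 1 on log axes, with 1 point per cell and dotted lines at 10 UMIs. Most cells lie along one axis or the other, and 60 cells of replicate 1 and 40 of replicate 2 reach 10 UMIs of both genes.

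To describe what else went with this division, cells with at least 10 UMIs of one gene and fewer than 10 of the other were set side by side. There were 326 Grp-high cells (246 and 80, or 45.4% and 37.0%) and 233 Calb2-high cells (180 and 53, or 33.2% and 24.5%), while 100 cells were high for both and 99 for neither. The limit of 10 UMIs is a cut through a range: 58 cells had 8 to 11 UMIs of Grp and 84 had 8 to 11 of Calb2. The 2 kinds of cells were alike in depth, with median UMIs of 6916 and 7092.5 in Grp-high cells and 6720 and 6976 in Calb2-high cells. Because both are drawn from the same libraries by 2 of the measured genes, the following levels carry no test.

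Among genes of Gq signaling, Plcb4 was at 111 and 121 CPM in Grp-high cells of the 2 libraries and 91.4 and 109 CPM in Calb2-high cells, and Gnaq at 188 and 161 CPM against 205 and 242 CPM. In each library Plcb4 was the higher and Gnaq the lower in Grp-high cells. Grm5 was at 77.7 and 40.2 CPM in Grp-high cells against 114 and 68.1 CPM in Calb2-high cells, the lower in Grp-high cells of each library.

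Of the mGluR2 list, Plcb1, Kcnj6 and Grm2 went with Calb2, and several other members did not. Plcb1 was at 110.5 and 117 CPM in Calb2-high cells and 17.7 and 8.75 CPM in Grp-high cells. Kcnj6, a subunit of the potassium channels that G proteins open, was at 54.9 and 57.2 CPM against 8.03 and 12.2 CPM. Grm2 was at 14.6 and 13.6 CPM against 5.89 and 5.25 CPM, the higher in Calb2-high cells of both libraries but from few UMIs. The subunit Kcnj3 did not follow, with 25.6 and 24.5 CPM in Calb2-high and 43.4 and 36.7 CPM in Grp-high cells. Gnao1, a G protein subunit, was at 426 and 367 CPM against 466 and 418 CPM, and Gnai2 at 111 and 59.9 CPM against 89.98 and 82.2 CPM. Gnai1 was at 102 and 109 CPM against 73.4 and 94.5 CPM, a small difference, while Grm3 (20.5 and 0 CPM against 13.9 and 1.75 CPM) and Kcnj9 (8.05 and 5.44 CPM against 6.96 and 8.75 CPM) were low and differed in direction between the libraries.

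Among the brush cell markers Otx2 was the higher in Grp-high cells, at 138 and 175 CPM against 54.1 and 92.6 CPM, and the ranges over the 2 libraries did not overlap. Lmx1a was at 148 and 191 CPM in Grp-high cells and 135 and 152 CPM in Calb2-high cells. These ranges overlapped, though within each library the Grp-high cells were the higher. Samd3 overlapped too, at 172 and 203 CPM against 181 and 272 CPM, and within each library the Calb2-high cells were the higher. Eomes, which every member had to hold, was at 1039.6 and 1176 CPM against 772 and 906 CPM. En2 was at 242 and 406 CPM against 202 and 275 CPM. Tmem108 was at 649 and 829 CPM against 468 and 577 CPM, the higher in Grp-high cells. Neurod1 ran the other way, at 992 and 735 CPM against 1484 and 1279 CPM.

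**Figure D3:**
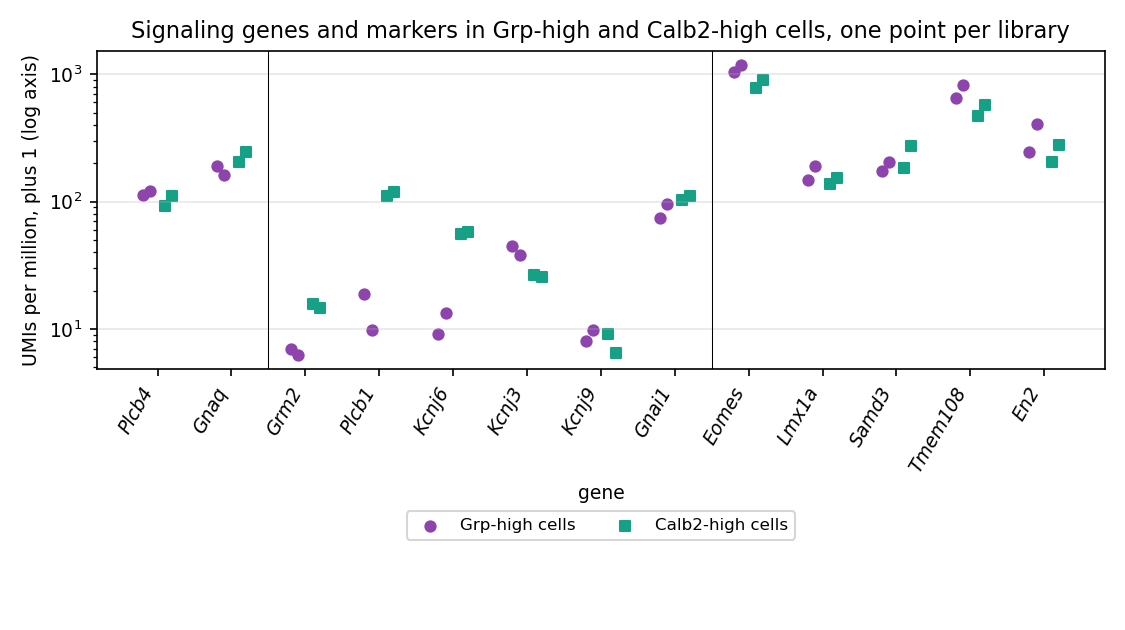
Levels of 13 genes in Grp-high and Calb2-high brush-like cells of the 2 P5 libraries, as CPM plus 1 on a log axis, with 1 point per library and class. A pair of Gq signaling genes stands first, then genes of the mGluR2 route, then brush cell markers. Plcb1 lies at 110.5 and 117 CPM in Calb2-high cells against 17.7 and 8.75 CPM in Grp-high cells.

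Over all genes with at least 20 UMIs in each library, those with the largest ratios were picked after their values were seen. Besides Grp, they were led in Grp-high cells by Sln (sarcolipin, a regulator of the calcium pump of the endoplasmic reticulum) at 154 and 145 CPM against 19.02 and 10.9 CPM. Brinp2 followed at 214 and 203 CPM against 41.7 and 27.2 CPM, and Ntng1, which encodes the axonal adhesion protein netrin-G1, stood at 291 and 313 CPM against 65.8 and 70.8 CPM. Each was several-fold the higher in Grp-high cells of both libraries. In Calb2-high cells, Calb2 itself was followed by Plcb1 and by Scg2, the granin secretogranin II, at 633 and 825 CPM against 139 and 173 CPM. Reln was at 116 and 128 CPM against 23.03 and 17.5 CPM, and Cnr1, the cannabinoid receptor CB1, at 748 and 762 CPM against 240.5 and 255 CPM.

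Genes of young neurons were mixed, and genes of mature neurons were lower, in the brush-like cells. Of 11 tested genes of young neurons 4 were higher (Sox4, Cd24a, Dcx and Neurod1) and 5 were lower. Sox4, a factor of neuronal differentiation, was at 1464 and 1822 CPM against 370.1 and 413 CPM, with a log2 change of 2.01 (SE 0.09, adjusted p = 6.0e-11). Gap43, a protein of growing axons, was at 709.6 and 747 CPM against 3521 and 3744 CPM, and its log2 change was -2.37 (SE 0.09, adjusted p = 6.6e-12). The classes did not overlap for either gene. Tubb3, the neuronal beta tubulin, was lower as well, at 716 and 822 CPM against 2158 and 2627 CPM.

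Of 15 tested genes of mature neurons, 14 were lower in brush-like cells and 1 was higher. The median log2 change was -1.30. Syt1, the calcium sensor of synaptic vesicles, was at 435 and 280.4 CPM against 1285 and 1081 CPM. Snap25, a membrane protein of vesicle fusion, stood at 214 and 146 CPM against 455 and 397 CPM. Nefl, the light neurofilament of long axons, was at 369.9 and 340.1 CPM against 958 and 1027 CPM. In all 3 the comparison cells of both libraries were the higher. The gene that was higher was Map2, of dendritic microtubules, at 639.7 and 534 CPM against 476 and 409.7 CPM, with a log2 change of 0.35 (SE 0.09, adjusted p = 0.0038), a call that was lost without the library block.

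Voltage-gated channels went in both directions, with 6 of 24 tested genes higher, 11 lower and 7 not called. Over all genes 26.4% were higher and 28.2% lower, so the part of channels that was higher was near that of all genes. Cacna1e, the R-type calcium channel, was at 211 and 162 CPM against 119 and 91.9 CPM, a log2 change of 0.77 (SE 0.10, adjusted p = 7.1e-06). Cacna1i, a T-type calcium channel, was at 15.5 and 12.9 CPM against 5.66 and 4.68 CPM. Kcnq3, a subunit of the M current, was among the lower genes at 69.9 and 33.2 CPM against 283 and 239.6 CPM, a log2 change of -2.35 (SE 0.15, adjusted p = 3.5e-09). The higher genes included 4 calcium channel genes (Cacna1a, Cacna1d, Cacna1e and Cacna1i), of which Cacna1d lost its call without the block.

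Synaptic organizers were divided, with 5 of 17 tested genes higher and 7 lower. The part that was higher was again near the 26.4% of all genes, and 28.2% of all genes were lower. Those higher were Cbln1, Cbln4, Nlgn1, Lrrtm3 and Nptx1. Nlgn1, the neuroligin of glutamatergic synapses, was at 196 and 173 CPM against 34.3 and 34.3 CPM, a log2 change of 2.38 (SE 0.11, adjusted p = 7.6e-11). Nptx1, a pentraxin that gathers AMPA receptors, was at 33.9 and 24.6 CPM against 0.778 and 0.563 CPM, a log2 change of 5.39. It passed the filter on low values through the brush-like cells alone. Lrrtm3, a postsynaptic leucine-rich repeat protein, was at 48.4 and 40.6 CPM against 6.36 and 7.34 CPM. All 3 were well above the comparison cells in both libraries.

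Peptides and granins other than Grp were lower more often than higher, with 2 higher, 5 lower and 4 not called of 11 tested. The shares over all genes were 26.4% higher and 28.2% lower. Chgb (chromogranin B, a protein of dense-core vesicles) was at 1849 and 1353 CPM against 351 and 303 CPM, a log2 change of 2.22 (SE 0.10, adjusted p = 4.2e-11). Adcyap1, which encodes the peptide PACAP, was at 77.4 and 75.03 CPM against 37.7 and 42.7 CPM. Both were higher in the brush-like cells of each library. Sst, the somatostatin gene and a marker of some pontine neurons, was at 111 and 46.7 CPM against 564 and 639 CPM. Among calcium-binding proteins Calb2 and Necab2 were higher and 4 of 7 tested were lower, with Calb1 (calbindin) at 12.2 and 4.30 CPM against 112 and 105 CPM.

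Every other list held genes that passed the filter on low values through 1 class alone. The comparison cells alone brought past it 3 of 8 tested genes of Gq signaling, 3 of 10 of the mGluR2 pathway, 3 of 4 transmitter genes and 1 of 5 rostral regional factors. The same was so for 4 of 15 genes of mature neurons, 5 of 18 subtype markers of pontine neurons and 5 of 24 channels. It was also so for 3 of 17 synaptic organizers, 3 of 11 peptides and granins, 2 of 7 calcium-binding proteins and 3 of 7 dissociation genes. Through the brush-like cells alone passed 2 of the rostral regional factors (Lmx1a and Otx2), 1 gene of young neurons and 1 synaptic organizer. Of the peptides and granins, 9 of 16 were lower and 2 were higher with no filter on genes.

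**Figure D4:**
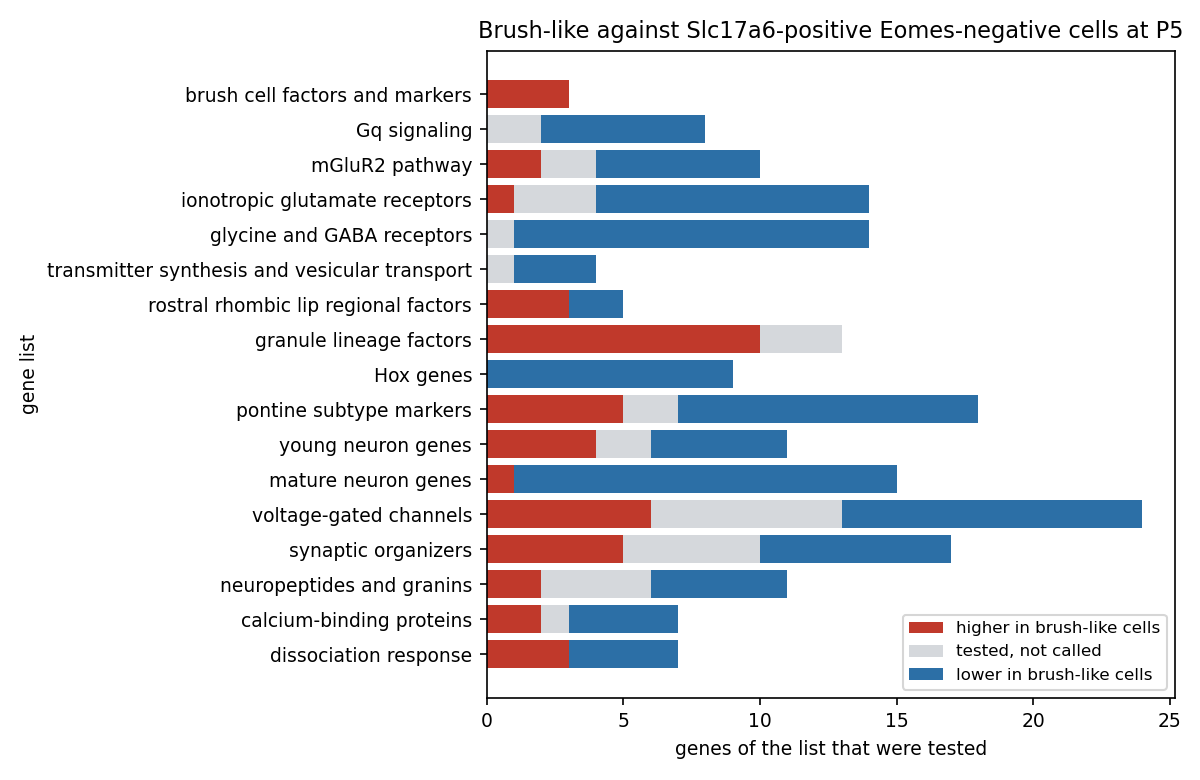
For each list of genes, the number of tested genes that were higher, not called or lower in brush-like cells against comparison cells at P5 (edgeR, adjusted p under 0.05 and absolute log2 change over 0.25). Bars add up to the genes tested. All 9 Hox genes and 13 of 14 glycine and GABA receptor genes are lower, while 10 of 13 granule lineage genes are higher, against 28.2% lower and 26.4% higher over all genes. All 9 Hox genes and 9 of the 14 receptor genes passed the filter on low values through the comparison cells alone. Of the 13 granule lineage genes, 2 did so through the brush-like cells alone. The filter set these directions in part. With no filter on genes 11 of 14 Hox genes and 14 of 17 receptor genes are lower, against 17.3% of all genes.

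UMIs of pontine neuron markers were fewer in the brush-like cells than in the comparison cells, and no background level was estimated for them. The summed level of the 11 markers in brush-like cells was 1367 and 1304 CPM, against 2621 and 2563 CPM in the comparison cells. Of 18 tested genes that mark subtypes of pontine neurons, 11 were lower, 5 were higher and 2 were not called. Pcp4, a calmodulin-binding peptide, was at 368 and 255 CPM against 1099 and 981 CPM, a log2 change of -1.80 (SE 0.11, adjusted p = 1.6e-09). Cdkn1c, an inhibitor of the cell cycle, was the other way, at 452 and 442 CPM against 107 and 134 CPM, a log2 change of 1.85 (SE 0.10, adjusted p = 1.0e-09). Neither gene's classes overlapped. Ebf1 and Kctd12, which were also called higher, lost their calls without the library block, where 3 genes were higher and 11 lower.

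Markers of glia were detected in the brush-like cells at more than their level in the comparison cells. The summed level of the 5 astrocyte markers was 142 and 157 CPM, against 84.2 and 68.4 CPM, and that of the 6 oligodendrocyte markers was 766 and 541 CPM, against 354 and 306 CPM. Mbp (myelin basic protein) was at 531 and 432 CPM against 187 and 165 CPM, and its log2 change was 1.39 (SE 0.09, adjusted p = 6.6e-09). Without the 49 mixed cells the log2 change of Mbp turned to -1.32, and that of the astrocyte water channel Aqp4 went from 1.33 to -0.22 and was no longer called. The mixed cells were chosen by UMIs that include those of Mbp and Aqp4 and were left out of the brush-like cells alone, so that these lower values follow in part from the choice. Without these cells 5872 genes were called over the whole comparison, 5656 of them shared with the 6012 called with the cells included.

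Markers of other cell types were found at low summed levels, except those of vessels and blood in replicate 1. The endothelial and pericyte markers were at 131 and 3.07 CPM in the brush-like cells of the 2 libraries, against 13.2 and 6.72 CPM in the comparison cells. The hemoglobin genes were at 1404 and 3.07 CPM, against 6.04 and 71.2 CPM, and 1 brush-like cell, in replicate 1, held both of them. These sums, like those of the glial markers, include the mixed cells. The microglial genes C1qa and C1qb were at 0 by the rule, and the 7 microglial markers summed to 13.2 and 4.92 CPM, against 6.51 and 2.79 CPM. The 4 markers of ependyma and choroid plexus summed to 10.2 and 8.61 CPM, against 3.34 and 3.88 CPM, with Ccdc153 and Ttr at 0 and Folr1 at 9.23 and 7.99 CPM.

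Eomes also marks young cortical neurons and Cajal-Retzius cells. The 3 markers of Cajal-Retzius cells summed to 3.49 and 31.4 CPM in brush-like cells, against 22.1 and 21.5 CPM, nearly all of it from Lhx1, while Lhx5 had no UMI and Trp73 had 1 UMI in each library. Of the cortical markers Emx1 had no UMI, and Tbr1 was at 4.24 and 3.69 CPM against 0.228 and 0.330 CPM. Neurod6, which is on the same list, was at 467 and 437 CPM against 64.2 and 56.5 CPM, with a log2 change of 2.85 (SE 0.09, adjusted p = 1.8e-12).

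Among markers of dividing cells, Cenpf, which encodes a kinetochore protein, was at 223 and 179.6 CPM in brush-like cells against 8.60 and 14.8 CPM. Mki67 and Top2a, which mark cycling cells more strictly, were at 3.74 and 13.5 CPM and 6.24 and 24.6 CPM. At least 2 of the 5 markers had a UMI in 20 and 10 of the brush-like cells. Mki67 and Top2a were higher in replicate 2, the library with more newborn-like cells, whereas Cenpf was higher in replicate 1. In replicate 2 the newborn-like cells held 60.4 CPM of Mki67 and 115 CPM of Top2a, against 0.78 and 0 CPM in the other members. In replicate 1 they held none of either gene, against 3.80 CPM of Mki67 and 6.34 CPM of Top2a in the others.

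Of the 10 genes with the largest rise over the comparison cells, Grp, Samd3, En2, Lmx1a and Cnpy1 were described above. All 10 passed the filter on low values through the brush-like cells alone, which set their direction in part. Ctxn3 (cortexin 3, a small neuronal membrane protein) was at 80.6 and 87.9 CPM against 0.0550 and 0.0486 CPM. Sln was at 88.4 and 65.8 CPM against 0.0629 and 0.0583 CPM. Both were close to 0 in both sets of comparison cells, with log2 changes of 10.54 and 10.22. Wnt10a, a secreted Wnt ligand, was at 22.7 and 37.5 CPM against 0.0864 and 0.126 CPM, and Sulf1, a heparan sulfatase, at 62.6 and 36.9 CPM against 0.291 and 0.214 CPM. Gm17590, a gene without an assigned name, completed the list at 17.2 and 16.6 CPM against 0.0236 and 0.0194 CPM.

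The 10 genes with the largest fall were mostly at or near 0 in brush-like cells and low in the comparison cells. All 10 passed the filter on low values through the comparison cells alone, which set their direction in part. Krt14 and Gm12408 had no UMI in brush-like cells, so that the comparison cells were at least 8.15-fold and 6.62-fold higher over the 2 libraries. Nrgn (neurogranin, a postsynaptic calmodulin-binding protein) was the most abundant, at 6.24 and 6.15 CPM against 86.2 and 94.8 CPM, and its log2 change was -3.89. Trim63, Bdh2, Ldoc1, Mapk13, Impa2, Col14a1 and Gm19705 made up the rest. Trim63 stood at 0.250 and 0.615 CPM against 7.11 and 8.77 CPM, from 1 UMI in each library's brush-like cells.

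The second comparison set the brush-like cells of P5 beside cells chosen by the same rule in the 3 E18.5 control libraries (1512, 1818 and 1554 cells). This comparison asks how cells with the same limits on raw UMIs of Eomes and Slc17a6 differ between the 2 ages. Age and dissection (pontine nuclei against hindbrain) cannot be told apart in it. Of kept cells with at least 3 UMIs of Eomes, 62 of 659 and 63 of 293 at P5 held more than 2 of Slc17a6. At E18.5, where the chosen cells were deeper, these were 1192 of 2766, 994 of 2830 and 1164 of 2778. The limit on Slc17a6 thus left out a larger part at E18.5, and what this did to the changes was not tested. At P5 the chosen cells held far more of the peptide Grp, of granins and of several inhibitory receptor subunits, and less of granule lineage genes. The test called 45% of 9443 genes tested, with 22.9% higher at P5 and 22.1% lower. With no filter on genes it called 30% of 21387 (13.4% higher and 16.6% lower), and the median log2 change was -0.21. Through the P5 cells alone 218 of the 9443 passed the filter on low values (217 called higher, none lower), and through the E18.5 cells alone 1956 (17 higher, 869 lower), so log2 changes of these are again a description. Newborn-like cells made up 65.3% of the E18.5 cells (3188 of 4884), whose median UMIs were 13371, 9731 and 11711.5, and 5.94% of those at P5 (45 of 758). After thinning to 3000 UMIs a UMI of Insm1 was found in 35.1%, 33.1% and 28.6% of the cells of the 3 E18.5 libraries and 0.562% and 9.81% of those of the 2 P5 libraries, and for genes whose log2 change is given the value without newborn-like cells stands beside it.

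Grp showed one of the largest rises. It was at 2255 and 2248 CPM at P5 and at 109.8, 55.2 and 57.2 CPM at E18.5, with a log2 change of 4.99, or 4.06 without newborn-like cells. Sln was at 88.4 and 65.8 CPM against 2.96, 2.17 and 2.38 CPM, a log2 change of 5.02 (3.76). Ctxn3 was at 80.6 and 87.9 CPM against 3.05, 1.93 and 3.47 CPM, a log2 change of 4.94 (4.12). The P5 libraries lay far above the E18.5 libraries for all 3 genes, which were also among the largest rises against the comparison cells at P5. Sln and Ctxn3 passed the filter on low values through the P5 cells alone.

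Of 8 tested genes of peptides and granins other than Grp, all 8 were higher at P5, and all 8 were so without newborn-like cells. The list's median log2 change was 2.29, against -0.03 over all genes. The filter on low values bears on this, since 2 of the 8 passed it through the P5 cells alone. With no filter 16 were tested, 8 of them higher and 1 lower, with a median of 0.22 (-0.21 over all genes). With edgeR's own filter 7 of 13 were higher and 1 was lower, with a median of 0.47 (-0.06 over all genes). Chgb was at 1849 and 1353 CPM against 171, 152 and 173 CPM, a log2 change of 3.33 (SE 0.15, adjusted p = 1.1e-05), or 2.77 without newborn-like cells. Scg2 was at 335 and 309 CPM against 65.3, 50.1 and 79.7 CPM, and its log2 change was 2.37 (1.52). Pnoc, which encodes the precursor of nociceptin, was at 31.7 and 33.8 CPM against 1.85, 0.869 and 2.24 CPM. In each of these 3 genes the lowest P5 library was above the highest E18.5 library. Sst, also among the 8, was at 111 and 46.7 CPM against 5.07, 13.3 and 11.1 CPM, and no background level was estimated for it, while the comparison cells at P5 held 564 and 639 CPM. Without P5 replicate 1, 6 of the 8 were called higher.

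Of the brush cell markers that were tested, Calb2 and Lmx1a were higher at P5 and Otx2 was lower. Calb2 was at 1661 and 1630.3 CPM at P5 and 514, 347 and 574 CPM at E18.5, a log2 change of 1.84 (SE 0.20, adjusted p = 2.9e-04) that was 0.73 without newborn-like cells. En2 was at 223 and 275 CPM against 126, 108 and 129.8 CPM, a log2 change of 1.09, or 0.60 without them. The P5 libraries were the higher in both cases. The log2 change of Lmx1a was 0.98 (SE 0.10, adjusted p = 2.7e-04), and without newborn-like cells it was 0.24 and was no longer called. That of Samd3 was 1.00, or 0.09 without them. Otx2 fell from 355, 467 and 365 CPM at E18.5 to 108 and 205 CPM, a log2 change of -1.31 (SE 0.27, adjusted p = 0.0057), or -1.44 without newborn-like cells.

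Of 6 tested genes of Gq signaling 4 were higher at P5 and 1 was lower, but 2 were higher without newborn-like cells and 2 without P5 replicate 1. Of 10 tested with no filter on genes, 2 were higher and 2 lower. Plcb4 was at 105 and 94.7 CPM against 31.1, 27.04 and 30.7 CPM, a log2 change of 1.82 (SE 0.11, adjusted p = 2.7e-05), or 1.61 without newborn-like cells. Its P5 and E18.5 libraries did not overlap.

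On the mGluR2 side Kcnj6 was lower at P5, at 28.2 and 29.5 CPM against 55.8, 54.9 and 61.5 CPM, with a log2 change of -0.95 (SE 0.13, adjusted p = 9.7e-04), or -0.83 without newborn-like cells. Plcb1 was at 51.9 and 54.7 CPM against 97.8, 93.4 and 92.4 CPM, a log2 change of -0.78 (SE 0.09, adjusted p = 4.4e-04), and that call was lost without newborn-like cells, where it was -0.36. Of the 7 genes tested 2 were higher, 2 were lower and 3 were not called, and with no filter on genes 5 of 10 were higher and 2 lower.

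Inhibitory receptor genes were higher at P5, 5 of 6 tested, with 4 higher without newborn-like cells and 3 without P5 replicate 1. Of the 6, 1 passed the filter on low values through the P5 cells alone and 1 through the E18.5 cells alone. With no filter on genes 17 were tested, of which 8 were higher and 1 was lower, and the median log2 change was 0.77 in place of 1.45. Glra2 was at 146 and 148 CPM against 25.5, 17.2 and 28.02 CPM, a log2 change of 2.70 (SE 0.19, adjusted p = 5.1e-05), or 1.80 without newborn-like cells. Glrb was at 53.9 and 29.5 CPM against 10.9, 8.69 and 9.18 CPM, a log2 change of 2.25 (SE 0.22, adjusted p = 2.0e-04), or 2.00 without them. Each P5 library was above all 3 E18.5 libraries for both subunits. Organizers of synapses were higher too, 10 of 14 tested with none lower, but 2 of the 14, Nxph1 among them, passed the filter through the P5 cells alone. Of 20 tested with no filter on genes, 11 were higher and 2 lower. Nlgn1 was at 196 and 173 CPM against 36.1, 30.9 and 35.9 CPM, a log2 change of 2.50 (SE 0.10, adjusted p = 7.3e-06), or 1.98 without newborn-like cells. Nxph1, which encodes a ligand of neurexins, was at 27.95 and 26.4 CPM against 2.53, 1.40 and 3.47 CPM. Without newborn-like cells 8 organizers were higher and 2 were lower, and Cbln1, at 423 and 391 CPM against 454, 391 and 462 CPM, was 1 of those 2, with a log2 change of -0.61 in place of -0.04.

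**Figure D5:**
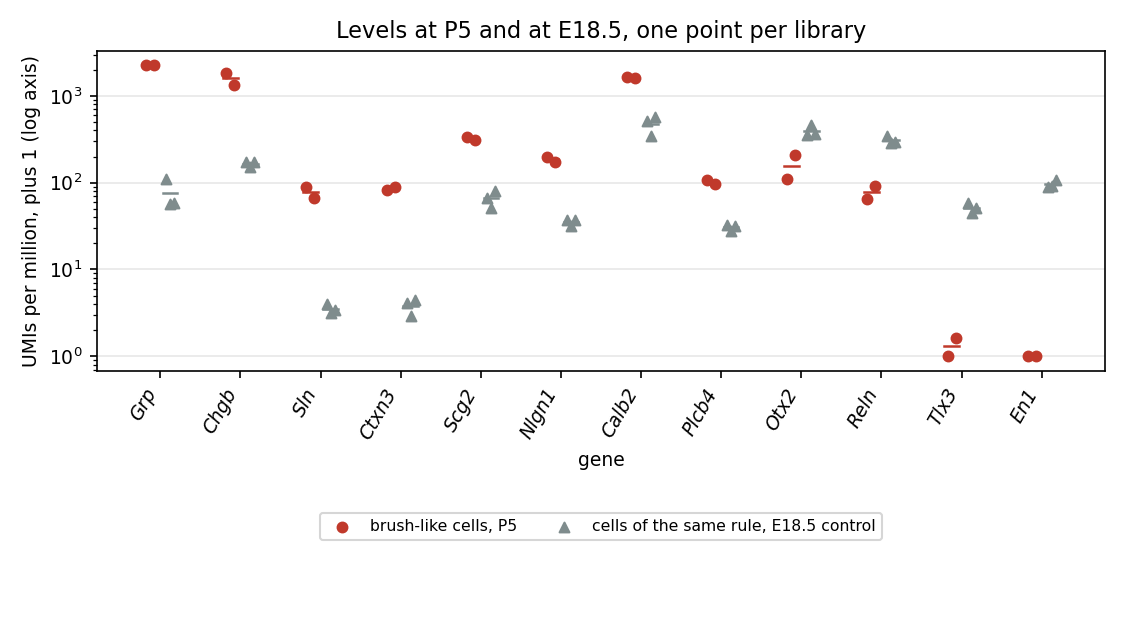
Levels of 12 genes in cells chosen by the same rule in the 2 P5 libraries and the 3 E18.5 control libraries, as CPM plus 1 on a log axis. Each point is 1 library and each line is the mean of its group. Grp lies at 2255 and 2248 CPM at P5 and at 109.8, 55.2 and 57.2 CPM at E18.5, while En1 lies at 0 CPM at P5 and at 87.3, 90.4 and 106 CPM at E18.5.

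Channels followed, with 10 of 20 tested higher at P5, 3 lower and 7 not called, and 6 higher without P5 replicate 1. The P5 cells alone brought 2 of the 20, Kcnq3 among them, past the filter, and the E18.5 cells alone 1. Without newborn-like cells 9 of 21 were higher and 3 lower, and the list's median log2 change was 0.36 in place of 0.57. Kcnq3 was at 69.9 and 33.2 CPM against 9.71, 8.74 and 11.5 CPM, a log2 change of 2.51, or 2.58 without newborn-like cells. Kcnd3, a subunit of the A-type potassium current, was lower at P5, at 16.2 and 17.8 CPM against 51.2, 48.8 and 43.7 CPM, a log2 change of -1.46 (SE 0.14, adjusted p = 1.6e-04), or -1.19 without them. For both genes the P5 and E18.5 libraries did not overlap. Of 11 tested genes of mature neurons 7 were higher and 2 lower, or 4 and 2 without newborn-like cells and also without P5 replicate 1. Snap25 was at 214 and 146 CPM against 95.6, 80.5 and 92.2 CPM.

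Several transcription factors of the E18.5 cells were absent or nearly so at P5. En1 was at 87.3, 90.4 and 106 CPM in the 3 E18.5 libraries and had no UMI among the 758 cells at P5, so that E18.5 was at least 178-fold higher. Tlx3, a homeobox factor of granule precursors and of other glutamatergic neurons, was at 58.00, 44.1 and 49.5 CPM against 0 and 0.615 CPM. Sp5, a zinc finger factor downstream of Wnt signals, was at 68.01, 61.1 and 52.4 CPM against 0.250 and 1.23 CPM. All 3 were among the 10 genes with the largest fall, as were the peptide genes Cartpt (58.98, 28.5 and 57.3 CPM against 0.250 and 0 CPM) and Tac2 (148, 82.7 and 118 CPM against 1.75 and 1.23 CPM). The chemokine receptor gene Cxcr4 and the muscle protein gene Mybpc1 had no UMI at P5 and were at least 23.9-fold and 43.0-fold higher at E18.5. All of these genes passed the filter on low values through the E18.5 cells alone, which set their direction in part.

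Most of these genes were higher in the newborn-like cells, of which E18.5 has many more. Without newborn-like cells the E18.5 libraries held 51.1, 68.9 and 65.3 CPM of En1, 28.8, 30.3 and 25.9 CPM of Tlx3, and 28.4, 22.6 and 22.2 CPM of Sp5. For Cartpt they held 12.7, 17.4 and 16.8 CPM, and for Tac2 222, 135 and 169 CPM, more than the newborn-like cells. Cxcr4 was then at 3.58, 3.02 and 1.92 CPM, and Mybpc1 at 4.47, 8.88 and 4.79 CPM. The log2 changes without newborn-like cells were -11.14 (En1), -6.96 (Tlx3) and -6.95 (Tac2), while the other 4 genes then fell below the filter.

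Granule lineage genes were lower at P5, 10 of 16 tested with none higher, and 12 of 14 without newborn-like cells. The E18.5 cells alone brought 4 of the 16 past the filter on low values, and 12 of 17 were lower and 1 was higher with no filter on genes. DESeq2, edgeR's own filter and the limit of 5% on mt- UMIs also called 1 gene higher. Reln was at 63.1 and 89.8 CPM against 345, 289 and 294 CPM, a log2 change of -1.99 (SE 0.17, adjusted p = 9.8e-05), or -1.87 without newborn-like cells. Pax6 was at 108 and 240.5 CPM against 561, 684 and 606 CPM, a log2 change of -1.80 (SE 0.31, adjusted p = 0.0026), or -1.78. In both the E18.5 libraries were the higher. Neurod1 did not follow, at 1235 and 1479 CPM against 1261, 1388 and 1539.5 CPM, and its log2 change was 0.01 (SE 0.14, adjusted p = 0.95), or -0.24 without newborn-like cells, where it was not called either. In replicate 2 of P5 the newborn-like cells held 3375 CPM of Neurod1 and the other members 964 CPM.

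Among the 10 genes with the largest rise at P5 were the glial transcripts Aqp4, Apoe and Mt1. Like Gal, Bc1 and Nwd2 below, they passed the filter on low values through the P5 cells alone, which set their direction in part. Apoe, the main apolipoprotein of astrocytes and microglia, was at 504 and 582 CPM against 17.01, 23.2 and 14.6 CPM. The sums of the astrocyte markers were 142 and 157 CPM at P5 against 19.1 to 21.1 CPM at E18.5, and those of the oligodendrocyte markers 766 and 541 CPM against 57.5 to 100.5 CPM. Without the mixed cells of both ages, which were chosen by markers that include Aqp4, the log2 change of Aqp4 was 4.75 in place of 5.19, that of Apoe 4.31 in place of 4.95 and that of Mt1 5.14 in place of 5.05. Without newborn-like cells these changes were 3.57, 3.75 and 4.68. Gal, which encodes the peptide galanin, was also among the 10, at 48.2 and 47.4 CPM against 1.72, 1.59 and 2.33 CPM. Its log2 change was 4.72, or 5.22 without newborn-like cells. Bc1, a neuronal noncoding RNA, had the largest rise but differed between the P5 libraries, at 103 and 30.7 CPM against 0.344, 0.773 and 1.05 CPM, and Nwd2 was at 45.7 and 32.6 CPM against 1.46, 1.11 and 1.76 CPM.

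Genes that respond to tissue dissociation differed between the 2 P5 libraries. Jun was at 178 and 502 CPM in brush-like cells against 81.3 and 107 CPM in comparison cells, and Egr1 at 18.97 and 109 CPM against 12.1 and 15.2 CPM. Replicate 2 was the higher for both genes in both classes. Fos was at 74.9 and 97.2 CPM against 213 and 254 CPM, the higher in the comparison cells. Of 7 tested genes 3 were higher and 4 were lower in brush-like cells, and between P5 and E18.5 1 of 6 was lower and 5 were not called. The median log2 change between the ages was -0.16, but 0.24 without P5 replicate 1 and -0.66 without P5 replicate 2. The part of dissociation genes in the other results was not tested.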

How the data were processed

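The authors sequenced 10x Genomics 3′ v3.1 libraries of sorted cells and made the deposited UMI counts per gene and cell with Cell Ranger (5.0.1 for the P5 and E18.5 control libraries, per the file headers) against mm10 with the reporter's WPRE element added. The deposited counts are not normalized, and 31054 genes are listed in each of 14 libraries. The members and the gene lists were chosen with earlier results of these data known.

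UMIs were summed per library and class, and genes were kept where at least 10% of the cells of a class, over its libraries, held a UMI. They were tested with edgeR 4.0.16 (TMM, quasi-likelihood F test, Benjamini-Hochberg adjustment over all genes tested). The genes of the rule were left out of the tests. Some items are not reported here, and those on a list were left out of its counts. The comparison within P5 had the library as a block, because both classes came from the same pools of pups, and their differences between libraries were correlated over genes (r = 0.50). Cells were not treated as replicates. Cells were thinned to 3000 UMIs for shares, and exact binomial intervals are at 95%. Where no UMI was found, the upper limit is that of 3 counts. Doublets were not removed beyond the rule, and leaving out the 7.5% of cells with the highest Scrublet scores was an alternative. The code was tested on simulated data.

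Named genes came from the lists or, in each test, from the called genes whose libraries did not overlap and that had at least 20 UMIs in the higher group, of which the top 10 by log2 change in each direction were taken. Other genes are said in the text to have been picked after their values were seen. Alternatives were other limits of the rule, DESeq2 1.42.0, other scaling factors and gene filters, equal numbers of cells, and leaving out each library. Promoter windows were read from RefSeq (GRCm38.p6). The libraries of the other genotype and the E14.5 libraries were used only for the number of cells in the series.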

Additional observations from a re-analysis of the deposited data

How the results depend on the processing

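Between brush-like and comparison cells 6012 genes were called, and between 4119 (DESeq2) and 7211 (edgeR's own filter on low counts) under the 12 alternatives. Leaving out a library there left 1 sum per class, so that each gene's change without a library is a value with no test. Of the 86 genes named in this comparison, those called kept their direction in all alternatives run, except Mbp and Aqp4, which turned to -1.32 (called) and -0.22 (not called) without mixed cells, and 14 others lost a call in at least 1 alternative. Glra2 and Slc17a7, which were not called, had log2 changes near 0 of either sign, and Plcb4, also not called, was called lower with no filter on genes and with edgeR's own filter. Without the replicate block 4804 genes were called, all of them among the 6012.

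Between P5 and E18.5 4247 genes were called, and 6423 with no filter on genes. Leaving out 1 library at a time gave 2695 (without P5 replicate 1) to 4541 (without P5 replicate 2), and the lone P5 library was then assumed to vary like the others. The numbers of the P5 and E18.5 libraries name different animals and give no pairing, and with a replicate block over replicates 1 and 2 3763 genes were called (correlation of the same-numbered libraries' differences over genes, r = 0.15). With upper-quartile scaling 4513 were called, 1725 higher and 2788 lower, in place of 2161 and 2086, and the median of all genes moved from -0.03 to -0.14. Of the 38 genes named, those called kept their direction in all alternatives run, while Neurod1 and Cbln1 lay near 0 with either sign. Lmx1a and Plcb1 lost their calls, and Cbln1 gained one, without newborn-like cells, of which E18.5 has many more. The change of the described marker Samd3 was smaller there as well.

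The mean share of brush-like cells, 4.03%, was 2.77% with at least 5 UMIs of Eomes and 2.86% with 0 of Slc17a6. A UMI was found in at least 50% of the members for 57 listed genes, and for 31 after thinning to 3000 UMIs, since fewer UMIs per cell were then counted. Depth limits genes near 1 UMI per library, where the brush-like cells of replicate 2 allow up to 1.84 CPM for a count of 0.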
